A study of Mus musculus with 18 samples.

Results

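Prostaglandins are short-lived lipid signals made from arachidonic acid, which phospholipase A2 enzymes release from membranes. The cyclooxygenases encoded by Ptgs1 and Ptgs2 turn arachidonic acid into prostaglandin H2, and a terminal synthase in each cell then sets which prostaglandin is made. Fibroblasts are known for inducing Ptgs2 in response to growth factors, cytokines and stress, while Ptgs1 is usually regarded as the constitutive enzyme. The genes described here are 6 of that pathway. They are both cyclooxygenase genes, the terminal synthase genes Ptges, Ptgis and Ptgds for prostaglandin E2, prostacyclin and prostaglandin D2, and Ptger4, which encodes the prostaglandin E2 receptor EP4. They were chosen by symbol with earlier results of these data known. Of the 6, Ptgs1, Ptgs2, Ptgis and Ptger4 (4 genes) were listed at every time. Ptges and Ptgds (2 genes) were listed at none, which says nothing about their levels.

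Polyadenylated RNA was sequenced from a pair of immortalized mouse embryonic fibroblast lines. The eIF2α S51A line (S51A) carries alanine in place of the serine that stress kinases phosphorylate on the translation factor eIF2α, and the wild-type line (WT) has that serine. Each line was untreated (0 min) or was given 500 µM hydrogen peroxide for 15 or 120 min, which makes 6 groups. The labels list 3 samples in each group, 18 in all, whereas the series design text speaks of duplicates. For each time the authors deposited a table of entries that they called different between the lines at a q-value of at most 0.05. These held 7555 entries at 0 min, 8308 at 15 min and 6119 at 120 min, with 10133 symbols in any of them. Each entry has 1 value per line in FPKM, that is, fragments counted relative to the length of the transcript and to the total mapped. Values per sample, their spread and the sequencing depth were not used here and are unknown, so no standard deviation stands beside a level. No label says whether samples of a group were separate cultures, so the deposited q-values may rest on technical spread alone. With a single line for each genotype, effects of the genotype and of the line cannot be told apart.

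The labels were checked where the tables allow. Eif2s1, which encodes eIF2α, had 45.3, 45.6 and 57.7 FPKM in S51A at 0, 15 and 120 min and 91.8, 90.5 and 97.7 FPKM in WT. Since S51A changes 1 codon and not necessarily the amount of transcript, these levels do not check the genotype. Of 10 fibroblast markers, 9 were listed at 0 min, with 6.15 to 1160.0 FPKM in S51A and 3.71 to 1872.0 FPKM in WT. They were divided between the lines, 6 higher and 3 lower in S51A. The collagen gene Col1a2 was 7.06-fold higher and the proteoglycan gene Dcn 6.11-fold lower. None of 7 endothelial markers was listed at any time. Only entries called different between the lines were listed, so an unlisted marker may be absent or alike in both. Non-listing thus does not check the cell type. The leukocyte markers listed at 0 min, 3 of 8, summed to 12.1 FPKM in S51A and 19.2 FPKM in WT. Of the smooth muscle markers, 2 of 5 were listed at 0 min and summed to 122.7 FPKM in S51A and 24.0 FPKM in WT. The 3 listed at 120 min summed to 384.0 FPKM in S51A and 100.4 FPKM in WT. These sums cover different genes and do not show a change over time. Tagln, at 205 FPKM in S51A and 75.6 FPKM in WT at 120 min, was not listed at 0 min. The only listed epithelial marker of 6 was Krt19, at 8.17 FPKM in S51A and 6.06 FPKM in WT at 0 min and at 21.7 FPKM in S51A and 8.40 FPKM in WT at 120 min. The part of these cell type differences in the results on the prostaglandin genes was not tested. In bulk RNA, fewer cells of a type and less RNA per cell cannot be told apart.

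The 250 bases before the start of 3 of these genes are shown because the data bear on them in different ways. Ptgs2 and Ptger4 were the listed members whose S51A to WT ratio moved most by 120 min, and Ptgs1 is the other cyclooxygenase gene. Sequences and starts are those of RefSeq on GRCm38.p6, the assembly of mm10, and 5 of the 6 members had an entry. They run 5′ to 3′ on the strand of the gene, which is the plus strand of chr1:150099781-150100030 for Ptgs2, the minus strand of chr15:5244188-5244437 for Ptger4 and the plus strand of chr2:36230176-36230425 for Ptgs1. Capitals mark the only motif match.
Ptgs2: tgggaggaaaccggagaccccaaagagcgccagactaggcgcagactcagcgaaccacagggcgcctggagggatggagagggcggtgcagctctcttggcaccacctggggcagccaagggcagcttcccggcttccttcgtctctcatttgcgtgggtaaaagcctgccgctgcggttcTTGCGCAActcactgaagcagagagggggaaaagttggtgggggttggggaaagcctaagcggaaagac
Ptger4: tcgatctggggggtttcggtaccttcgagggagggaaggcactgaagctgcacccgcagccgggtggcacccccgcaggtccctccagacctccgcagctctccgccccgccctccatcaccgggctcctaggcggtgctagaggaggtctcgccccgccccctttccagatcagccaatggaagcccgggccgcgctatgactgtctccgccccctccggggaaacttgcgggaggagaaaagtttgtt
Ptgs1: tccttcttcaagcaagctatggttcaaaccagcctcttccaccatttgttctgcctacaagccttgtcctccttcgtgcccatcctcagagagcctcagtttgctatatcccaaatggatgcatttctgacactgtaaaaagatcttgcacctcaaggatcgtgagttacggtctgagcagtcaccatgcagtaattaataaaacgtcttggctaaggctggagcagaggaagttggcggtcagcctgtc
The match in Ptgs2 is to the C/EBP motif TTGCNNAA, on both strands at once, at positions -69 to -62 counted from the RefSeq start, and no other motif overlapped it. This motif occurred in 9.56% of 32851 promoter windows of the same length. The windows of Ptger4 and Ptgs1 held no match to any of the 9 motifs searched on both strands. The others were the TATA box (TATAAA, in 12.4% of windows), AP-1 (TGANTCA, 6.75%), the cAMP response element core (TGACGT, 6.47%), the E-box (CACGTG, 6.02%), the C/EBP-ATF element (TGATGNAA, 3.45%), the antioxidant response element (TGACNNNGC, 10.2%), NF-kB (3.9%) and the CArG box (1.47%). The window of Ptger4 was richer in G and C, at 66.8%, than those of Ptgs2, at 61.6%, and Ptgs1, at 48.0%. A match is a description of letters, and its absence from these windows says nothing about a factor. The deposited start of Ptgs2, at 150100124, lies inside its RefSeq gene. The window ends before that start without reaching it, so the bases next to the start the authors used were not searched.

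Among untreated cells, both cyclooxygenase genes were lower in S51A and the prostacyclin synthase gene was higher. Of the 4 listed members, 3 were lower and 1 was higher in S51A, against 50.4% and 49.6% of all listed entries. The same 3 were lower and 1 higher at 15 min, against 50.1% and 49.9% of entries, and 2 were lower and 2 higher at 120 min, against 49.1% and 50.9%. Since the members were chosen with these contrasts known, nothing is read from those counts. Of RefSeq protein-coding genes, 34.3% were listed at 0 min, 37.4% at 15 min and 27.6% at 120 min.

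Ptgs2 (chromosome 1, 150100124 to 150108012 in mm10, from the deposited gene positions), which encodes the inducible cyclooxygenase, had, of the 4 listed members, the highest level in WT and the largest difference between the untreated lines. It had 8.69 FPKM in S51A and 142 FPKM in WT, 16.3-fold lower in S51A. After 15 min it had 7.57 FPKM in S51A and 154 FPKM in WT, a 20.4-fold difference. By 120 min the gap had narrowed to 2.50-fold, with 44.3 FPKM in S51A and 111 FPKM in WT. The authors' deposited tables give log2 ratios of -4.03, -4.36 and -1.33 for it, each at the smallest q-value of its table (0.000118, 0.000102 and 0.000198). That smallest value was shared by 4905 of 7555 entries at 0 min, 5803 of 8308 at 15 min and 3041 of 6119 at 120 min. It therefore singles out no gene, here or for the other members. At 0 min Ptgs2 ranked 64 among the 3806 entries lower in S51A, ordered from the largest difference, and at 120 min it ranked 707 of 3006. Ptgs2 was thus lower in S51A at every time, while its level in S51A at 120 min was 5.10 times that at 0 min.

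Ptgs1 (chromosome 2, 36230426 to 36252271), the gene of the constitutive cyclooxygenase, was also lower in S51A at every time. It had 3.14, 3.43 and 2.0 FPKM in S51A at 0, 15 and 120 min and 12.5, 12.3 and 12.9 FPKM in WT. The difference was 3.97-fold, 3.58-fold and 6.45-fold. Every S51A value lay below every WT value, and the widest gap stood at 120 min, when that of Ptgs2 was narrowest. The authors' deposited tables give it log2 ratios of -1.98, -1.84 and -2.69, at the smallest q-value of each table. No S51A value reached 5 FPKM, and with 1 FPKM added to each line the log2 ratio at 120 min was -2.21.

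Ptgis (chromosome 2, 167203196 to 167240537) encodes prostacyclin synthase, a cytochrome P450 enzyme that isomerizes prostaglandin H2. It was the only member higher in S51A at every time. Its levels were 33.4, 35.0 and 41.4 FPKM in S51A and 15.7, 14.0 and 15.5 FPKM in WT at 0, 15 and 120 min. The folds were 2.13, 2.50 and 2.68, and the authors' deposited tables give the smallest q-value for each. The lowest S51A value lay above the highest WT value.

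Ptger4 (chromosome 15, 5233399 to 5244187), whose receptor couples prostaglandin E2 to cAMP, was called in opposite directions at different times. It had 2.13 and 2.0 FPKM in S51A at 0 and 15 min and 3.05 and 3.36 FPKM in WT, which is 1.43-fold and 1.68-fold lower in S51A. At 120 min it had 2.71 FPKM in S51A and 0.818 FPKM in WT, 3.32-fold higher in S51A. The authors' deposited tables give q-values of 0.00812, 0.000102 and 0.000198. The reversal went with a lower level in WT, 3.73 times lower at 120 min than at 0 min, and a level in S51A that differed by 1.27 times. It was the lowest of the listed members except in S51A at 120 min, when Ptgs1 was lower, and no value reached 5 FPKM.

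**Figure D1:**
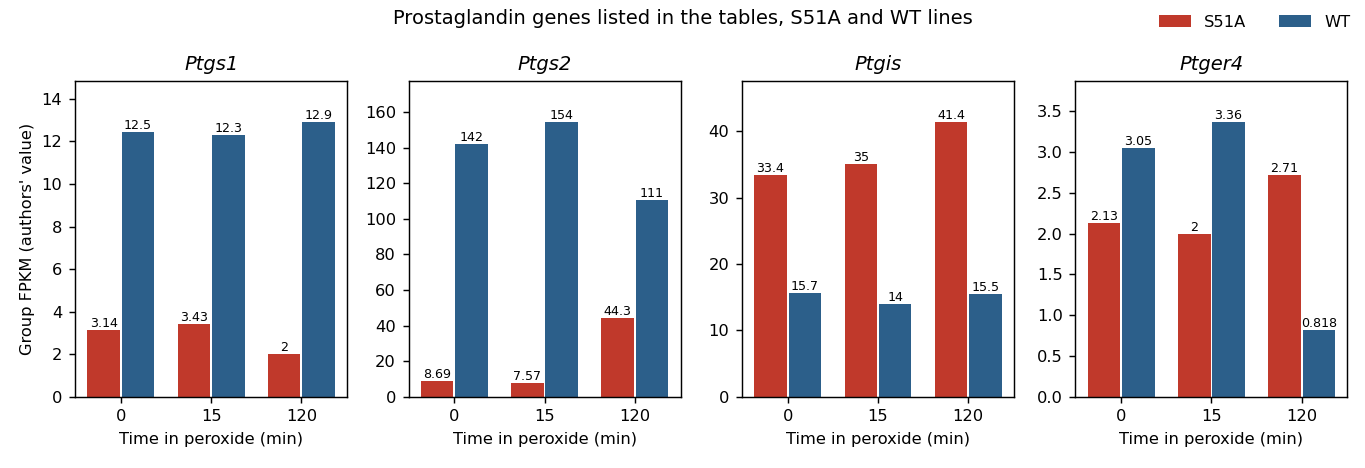
Group FPKM of the listed members (vertical axis, linear from 0, a scale of its own for each gene) at 0, 15 and 120 min of peroxide, with S51A bars in red and WT bars in blue. Each bar is the authors' single group value, with no error available. Ptgs2 was at 44.3 FPKM in S51A at 120 min against 8.69 at 0 min, and Ptger4 was higher in S51A only at 120 min, at 2.71 FPKM against 0.818 in WT.

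FPKM is scaled to transcript length, so levels of different genes are set side by side here as a description. The change in the ratio between the lines still went with transcript length, as given below. The part of length in these comparisons was not tested. In untreated S51A cells Ptgis had the highest level of the listed members, 3.84 times that of Ptgs2. In untreated WT cells Ptgs2 led, at 9.06 times the level of Ptgis. After 15 min the order was unchanged in both lines, with Ptgis at 4.63 times Ptgs2 in S51A and Ptgs2 at 11.0 times Ptgis in WT. At 120 min Ptgs2 and Ptgis were close in S51A, at a ratio of 1.07, whereas Ptgs2 was 7.16 times Ptgis in WT. Whether such neighbours differ beyond the spread of samples is unknown.

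The balance between the cyclooxygenase genes also differed between lines and times. The level of Ptgs2 was 2.77, 2.20 and 22.2 times that of Ptgs1 in S51A at 0, 15 and 120 min. In WT these ratios were 11.4, 12.6 and 8.57. The ratio of 22.2 rests on a Ptgs1 level of 2.0 FPKM in S51A, whose precision is unknown. Ptgs1 made up 26.5% of the summed FPKM of both genes in untreated S51A cells and 8.07% in untreated WT cells, and 4.32% in S51A and 10.4% in WT at 120 min. The sum itself was 11.8 FPKM in S51A and 154.5 FPKM in WT at 0 min, and 46.3 FPKM in S51A and 123.6 FPKM in WT at 120 min.

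Changes within a line compare values of separate tables, which may have been normalized separately, so they are descriptions with no call. They are given as the log2 of FPKM plus 1 at a time over that at 0 min, less the median over genes listed in both tables. That median was 0.02 in S51A and 0.01 in WT at 15 min (6369 genes) and -0.18 in S51A and -0.10 in WT at 120 min (4328 genes). Adding 1 FPKM understates changes of low genes. For Ptgs2 the change at 120 min was 2.40 in S51A and -0.26 in WT. In S51A this was the rank 20 from the highest of 4328 genes. Ptger4 changed by 0.42 in S51A and -1.06 in WT, and in WT it ranked 62 from the lowest. Ptgs1 changed by -0.29 in S51A and 0.14 in WT, and Ptgis by 0.48 in S51A and 0.08 in WT. At 15 min every listed member lay between -0.20 and 0.11 in both lines. The departure of Ptgs2 in S51A and of Ptger4 in WT from their 0 min levels was thus seen at 120 min and not at 15 min.

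**Figure D2:**
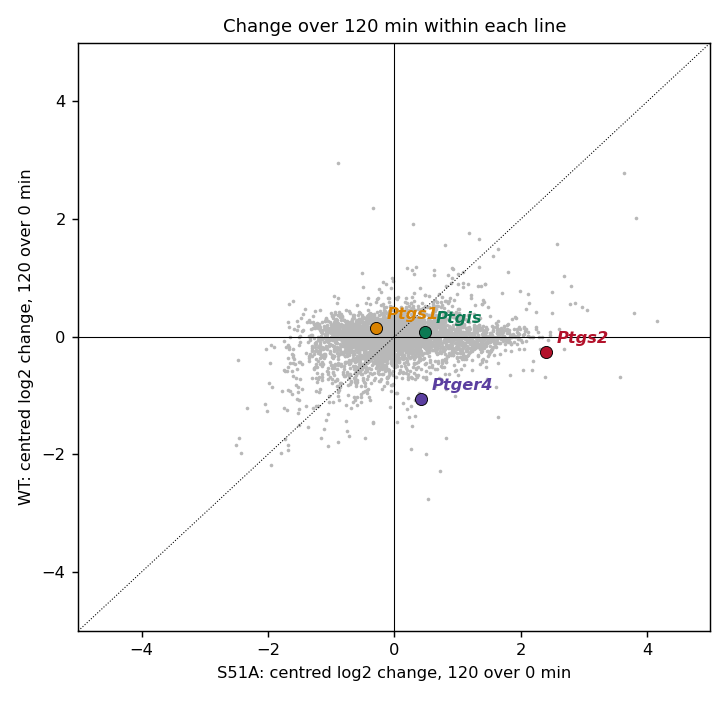
Centred log2 change of FPKM plus 1 from 0 to 120 min in S51A (horizontal axis) and WT (vertical axis) for 4272 genes listed at both times and above 0 in every group, in grey, with the listed members in colour and a dotted line of equality. Ptgs2 lies far to the right, at 2.40 in S51A and -0.26 in WT, and Ptger4 lies low, at 0.42 in S51A and -1.06 in WT.

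The log2 ratio between the lines is formed within 1 table and needs no comparison across tables of either line alone. From 0 to 120 min this ratio moved by 2.70 for Ptgs2, towards S51A. That ranked 14 from the highest of 4272 genes listed at both times and above 0 in every group. For Ptger4 the ratio moved by 2.24, rank 30, and for Ptgis by 0.32, while for Ptgs1 it fell by 0.71. The median over those genes was -0.05. Genes not called at both times, such as any whose gap had closed by 120 min, were not ranked here or above. Of 4328 genes listed at both times, 10.4% were lower in S51A at 0 min and higher at 120 min, as Ptger4 was, and 18.1% were called in opposite directions. From 0 to 15 min the ratio changed by -0.33 for Ptgs2, -0.23 for Ptger4, 0.14 for Ptgs1 and 0.22 for Ptgis, and no member was called in opposite directions, as 1.85% of 6369 genes were. The change also went with transcript length across genes, taken as log2 of the longest GENCODE transcript. Pearson r was -0.55 at 15 min (6115 genes) and -0.61 at 120 min (4145 genes). Longer transcripts thus tended to move towards WT at both times. These genes share their libraries and are not independent replicates. The longest transcripts are 4453 nt for Ptgs2, 3771 nt for Ptger4, 2867 nt for Ptgs1 and 2107 nt for Ptgis, beside a median of 3498 nt. The deposited positions of Ptger4 and Ptgis span less than their GENCODE genes, so the transcripts the authors counted may differ in length. The part of transcript length in the changes of the members was not tested.

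**Figure D3:**
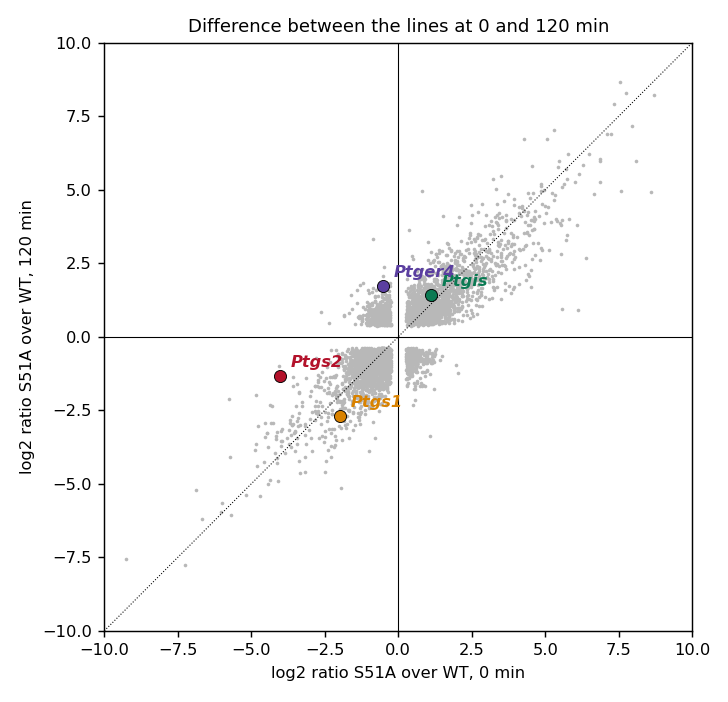
Log2 ratio of S51A over WT at 0 min (horizontal axis) and at 120 min (vertical axis) for the 4272 genes listed at both times and above 0 in every group, in grey, with the listed members in colour and a dotted line of equality. The empty band around 0 is there because only called genes were listed. Ptgs2 lies above the line, at -4.03 and -1.33, and Ptger4 lies in the upper left of the plot, at -0.52 and 1.72.

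The rest of the pathway was covered by 5 lists with 54 genes, of which 23 were listed at some time, where 45.4% of RefSeq protein-coding genes were. At 0 min 9 were higher and 8 lower in S51A, at 15 min 12 and 7, and at 120 min 13 and 7. The shares of all listed entries that were higher in S51A are those given above. The median log2 ratio of the listed pathway genes was 0.32, 0.7 and 0.92, beside -0.27, -0.2 and 0.41 over all entries. These medians include genes listed at 0 in a line, whose ratio has a known side but an arbitrary size.

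Upstream of the cyclooxygenases, 6 of 17 genes for arachidonic acid release and its control were listed at some time. Pla2g4a, which encodes the cytosolic phospholipase A2 that supplies arachidonic acid, was lower in S51A throughout. It had 12.8, 13.3 and 12.9 FPKM in S51A and 54.6, 54.9 and 56.5 FPKM in WT at 0, 15 and 120 min, a difference of 4.26-fold, 4.14-fold and 4.38-fold. Its log2 ratio lay between -2.13 and -2.05 at all times, and the gap to WT was as wide at 120 min as at 0 min. Plaa, the gene of a phospholipase A2-activating protein, was lower as well, at 25.3 FPKM in S51A and 50.2 FPKM in WT at 0 min and 20.4 FPKM in S51A and 50.2 FPKM in WT at 120 min. Pla2g16, a phospholipase and acyltransferase gene, was higher, at 3.18 FPKM in S51A and 2.22 FPKM in WT at 0 min and 5.31 FPKM in S51A and 2.62 FPKM in WT at 120 min. Anxa1, whose product annexin A1 restrains phospholipase A2, was higher at 388 FPKM in S51A and 311 FPKM in WT at 0 min and at 501 FPKM in S51A and 252 FPKM in WT at 120 min. Pla2g5, a secreted phospholipase A2 gene, was listed only at 15 min, at 1.28 FPKM in S51A and at 0 in WT. Anxa1 and Pla2g12a were singled out after their values were seen. Pla2g12a, another secreted phospholipase A2 gene, was called in opposite directions as Ptger4 was, at 18.0 FPKM in S51A and 24.4 FPKM in WT at 0 min and 37.5 FPKM in S51A and 20.7 FPKM in WT at 120 min.

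Of 8 other genes for terminal synthases and related reductases, 5 were listed at some time, in both directions. Ptges2, a second gene for prostaglandin E2 synthase, was lower in S51A, at 9.78 FPKM in S51A and 16.7 FPKM in WT at 0 min and at 10.6 FPKM in S51A and 14.1 FPKM in WT at 15 min. Cbr1, a carbonyl reductase gene whose enzyme can convert prostaglandin E2 to F2α, was higher at every time, at 26.7 FPKM in S51A and 9.38 FPKM in WT at 0 min and 45.3 FPKM in S51A and 9.58 FPKM in WT at 120 min. Akr1c18, an aldo-keto reductase gene, was listed at 0 in S51A at every time and at 2.25, 1.96 and 1.67 FPKM in WT. Fam213b, the gene of prostamide and prostaglandin F synthase, was listed at 3.01 FPKM in S51A and 0 in WT at 15 min. At 120 min it had 5.06 FPKM in S51A and 0.272 FPKM in WT, with a q-value of 0.04 in the authors' deposited table.

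Among 10 genes for other prostanoid receptors and for the nuclear receptors of Ppard and Pparg, 3 were listed, all higher in S51A when listed. Of RefSeq protein-coding genes 45.4% were listed at some time. Of all entries, 49.6%, 49.9% and 50.9% were higher in S51A at 0, 15 and 120 min. With at least 5 FPKM in either line, 1 of these receptor genes was left at 0 min, 0 at 15 min and 0 at 120 min. Nothing is read from their shared direction. Pparg, a nuclear receptor gene, had 1.49, 1.60 and 0.812 FPKM in S51A and 0.310, 0.219 and 0.221 FPKM in WT at 0, 15 and 120 min. Tbxa2r, the thromboxane receptor gene, was listed at 120 min, at 2.97 FPKM in S51A and 1.23 FPKM in WT. Ppard was listed at 0 min, at 16.5 FPKM in S51A and 10.8 FPKM in WT.

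The list of transport and breakdown genes, in which Ptgfrn was counted, was the most fully listed, 6 of 7. Slco2a1, the prostaglandin uptake transporter gene, was lower in S51A at each time, at 2.19, 2.27 and 0.737 FPKM in S51A and 5.35, 6.02 and 4.47 FPKM in WT. The difference of 6.06-fold at 120 min was its largest. The 15-ketoprostaglandin reductase genes Ptgr1 and Ptgr2 went opposite ways. Ptgr1 had 18.0 FPKM in S51A and 7.84 FPKM in WT at 0 min and 30.1 FPKM in S51A and 8.22 FPKM in WT at 120 min. Ptgr2 had 2.95 FPKM in S51A and 7.36 FPKM in WT at 0 min and 2.23 FPKM in S51A and 6.36 FPKM in WT at 120 min. Ptgfrn, whose product binds the prostaglandin F2α receptor, was higher at 38.6 FPKM in S51A and 11.2 FPKM in WT at 0 min and at 22.5 FPKM in S51A and 10.7 FPKM in WT at 120 min.

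**Figure D4:**
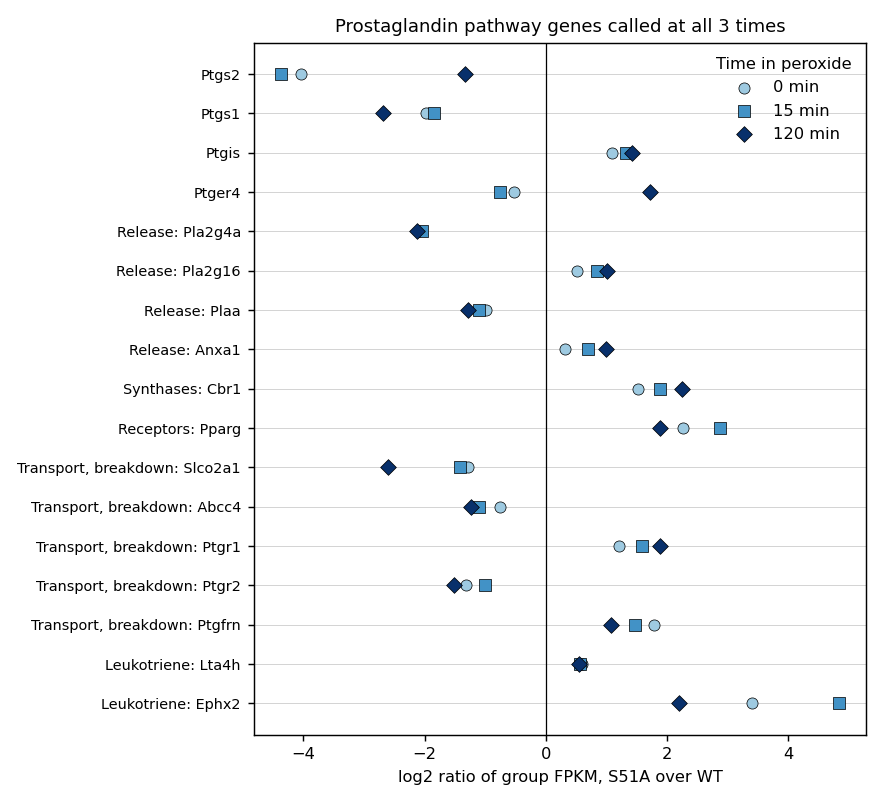
Log2 ratio of group FPKM, S51A over WT (horizontal axis), for members and other pathway genes listed at all 3 times with no value of 0, with circles for 0 min, squares for 15 min and diamonds for 120 min. The diamonds of Ptgs2 (-1.33) and Ptger4 (1.72) lie far to the right of their other points, whereas Pla2g4a stays between -2.13 and -2.05.

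The genes whose profile over the 6 group values was most like that of a member were found among 3284 genes listed at all times. Likeness was the root mean square difference of log2 of FPKM plus 1, each profile centred on its own mean. Closest to Ptgs2 were U90926 at 0.29, Fosl1, an AP-1 transcription factor gene, at 0.41, and Ramp3, a receptor activity-modifying protein gene, at 0.51. Fosl1 had 8.69 FPKM in S51A and 104 FPKM in WT at 0 min and 22.8 FPKM in S51A and 58.5 FPKM in WT at 120 min. U90926 had 1.91 FPKM in S51A and 54.2 FPKM in WT at 0 min and 8.17 FPKM in S51A and 32.0 FPKM in WT at 120 min. Closest to Ptgs1 were Layn at 0.09, Tbx20 at 0.13 and Ghr at 0.14, and closest to Ptgis were Ebpl at 0.04, Ifitm3 at 0.04 and Tmem45a at 0.05. Ptger4 was most like Klf6, a zinc finger transcription factor gene, at 0.11, Ccne2, a cyclin E gene, at 0.12, and Hilpda, a lipid droplet protein gene, at 0.15. Klf6 had 45.9 FPKM in S51A and 55.3 FPKM in WT at 0 min and 56.9 FPKM in S51A and 25.3 FPKM in WT at 120 min. Profiles of low or steady genes have little range on this scale, so distances are not comparable between members.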

How the data were processed

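Per the labels' protocols, libraries from poly(A)-selected RNA kept the strand and were sequenced as single 75 nt reads. STAR, Cufflinks, Cuffdiff and mm10 appear in the submitters' processing notes, without versions, order or roles, and the annotation and the strand setting of the counting are not given in the sources used here. Per the file headers, the authors deposited for each line a log2 FPKM value, and beside these a log2 ratio (S51A over WT) and a q-value, with replicates already combined. A log2 FPKM of -10 was read as 0. The ratio equals the difference of the columns within 0.01. One further numeric column in each of the 3 tables was not used.

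The deposited q-value (at most 0.05) was the only call. No test across samples could be made, and the depth is unknown. Entries with 2 symbols, dates or repeats were left out of gene lookups. FPKM was computed as 2 to the power of the deposited log2 value, and 1 was added to each deposited start. Members and lists were chosen with earlier results of these data known. Named genes were the members, up to 4 genes of each pathway list by the largest log2 ratio, the 3 closest profiles for each member (genes with at least 5 FPKM in 1 group), Eif2s1 and markers. Anxa1, Pla2g12a, Ptgs2os and Tpr are named outside this rule. Profile and motif searches were tested on simulated data. Alternatives were a fold of 2, 5 FPKM, a q-value of 0.001, pseudocounts of 1 or 0.1 FPKM and other centring. Python 3.11.15, pandas 2.3.3 and numpy 2.4.6 were used.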

Additional observations from a re-analysis of the deposited data

How the results depend on the processing

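No paired analysis was possible because the tables hold 1 value for each group and no sample values, so leaving out single replicates was not run either. Of 60 alternative values of the members' log2 ratios, none changed direction, but only centring could have changed it. The filters on fold, level and q-value leave a ratio as it was, and a pseudocount cannot turn its sign. Of the 60, 54 kept their call. The other 6 all concerned Ptger4, which had no value of 5 FPKM at any time, was under a fold of 2 at 0 and 15 min and missed a q-value of 0.001 at 0 min. With at least 5 FPKM, 1 member rather than 2 was higher in S51A at 120 min. With a minimum fold of 2, the other pathway genes at 0 min numbered 5 higher and 4 lower in S51A, rather than 9 and 8. With at least 5 FPKM they numbered 6 higher and 7 lower at 0 min. At 15 min that filter left 6 higher and 6 lower, rather than 12 and 7. At 120 min it left 9 higher and 5 lower, rather than 13 and 7. Fewer genes remain by construction, but the excess of higher genes at 15 min was not seen at 5 FPKM or more. With a pseudocount of 0.1 FPKM the change of Ptger4 in WT at 120 min was -1.67 rather than -1.06, and 1 of the 3 closest genes was shared for Ptgs1 and 1 of 3 for Ptgis. Of 48 alternative values of the changes over time, that of Ptger4 was the only 1 whose linear fold moved by over 1.5 times. The others moved by at most 0.18 on the log2 scale, which is large beside small changes such as that of Ptgs1 in S51A at 120 min (-0.46 without centring, rather than -0.29). The only 1 that changed sign was that of Ptgis in WT at 120 min, which was -0.02 without centring. The depth is unknown, so low values such as those of Ptger4 and of Ptgs1 in S51A have unknown precision.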

Other observations

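Of 6 other protein-coding RefSeq genes within 1000 kb of Ptgs2 on chromosome 1, 2 were listed, Pla2g4a and Tpr, both at all 3 times and both lower in S51A. Over all 21900 protein-coding genes, 8.18% were listed as lower at all times, which is 46.2% of those listed at all times, so little is read from so few. The window, and the naming of Tpr and Ptgs2os, were chosen after values were seen. Ptgs2os, a noncoding gene, lies on the opposite strand and runs away from Ptgs2, with its own deposited start 250 bases before that of Ptgs2 and inside the window printed above. It had 0.432, 0.444 and 0.559 FPKM in S51A and 2.20, 2.66 and 2.11 FPKM in WT at 0, 15 and 120 min. Its fold of 5.10 at 0 min and 3.78 at 120 min narrowed less than that of Ptgs2, and the counting of strands was not stated. Pla2g4a, described above, lies 138.8 kb before Ptgs2. Tpr, a nuclear pore gene 253.3 kb after it, had 58.1, 49.5 and 28.6 FPKM in S51A and 71.0, 94.4 and 76.6 FPKM in WT.

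Of 12 genes for leukotrienes, lipoxygenases and epoxide hydrolysis, 3 were listed, all higher in S51A when listed. Of RefSeq protein-coding genes 45.4% were listed at some time. Of all entries, 49.6%, 49.9% and 50.9% were higher in S51A at 0, 15 and 120 min. With at least 5 FPKM in either line, only 1 of these genes, Lta4h, was left at each time. Nothing is read from their shared direction. Lta4h, the leukotriene A4 hydrolase gene, had 81.0, 79.9 and 74.0 FPKM in S51A and 53.8, 54.2 and 50.6 FPKM in WT at 0, 15 and 120 min. Ephx2, the soluble epoxide hydrolase gene, had 3.25, 3.27 and 3.27 FPKM in S51A and 0.308, 0.115 and 0.717 FPKM in WT. Alox5ap, which encodes the activating protein of 5-lipoxygenase, was listed at 15 and 120 min, at 1.96 and 2.58 FPKM in S51A and 0.883 and 0.574 FPKM in WT.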
